A study of Mus musculus with 6 samples.

Results

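In cultured mouse spermatogonial stem cells, 213 of 18194 measured genes (1.17%) were markedly highest in the intermediate state, and they are described here. Gene expression was profiled on 6 Affymetrix arrays in 3 kinds of culture, with 2 arrays each. SSC are labelled unipotent germ-line stem cells, iSSC an intermediate state, and mSSC a multipotent state. All came from testes of male ICR mice aged 3 to 5 days and were grown on feeder layers of mitomycin-treated mouse embryonic fibroblasts. Colonies that turned flat or took on the shape of embryonic stem cells were either left in the serum-free medium for germ line stem cells or moved to a serum-free embryonic stem cell medium. The labels do not tie an array to a medium or to early or middle passages. Somatic testis cells were present when the first clumps formed, and feeder cells were part of the culture. The labels do not state that replicates were separate cultures or animals, so every p-value below measures only the spread between these samples, and n is 2 arrays per group throughout.

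The genes were chosen from the measured values. Each gene was represented by the probe set with the highest mean over the 6 arrays. Both iSSC arrays had to lie above the other 4, the iSSC mean had to be at least 6.5, and it had to exceed each other group mean by at least 1 on the log2 scale, which is 2-fold. That rule held for 221 genes, from which the prolactin genes Prl8a2 and Prl8a9, the cornified envelope genes Crct1 and Sprr2d, the redox gene Glrx, and the spermatogonial genes Id4, Lhx1 and Ret were set aside. All values below are log2 signals of single arrays or their differences. The excess of a gene is its iSSC mean minus the higher of its SSC and mSSC means. Because the rule set the excess, it is given as a description with no test. The same rule with another group on top found 533 genes for SSC and 953 for mSSC. A further 38 of the 10143 probe sets with no single gene name met the rule for iSSC and are not described.

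The 3 genes just inside the threshold were Arap3, Mettl8 and Rmdn1, with excesses of 1.0023, 1.0034 and 1.0038. Just outside it were 1700021F07Rik (0.998), Lrrc51 (0.9957) and Ece2 (0.9952). The median excess was 1.27, or 2.41-fold. It was at least 1.5 in 66 genes and at least 2 in 20, and 88 genes lay between 1 and 1.2. The lowest iSSC array stood above the highest other array by a median of 0.71, and by 0.07 to 3.01 across genes. The excess was larger than the widest difference between replicates in any group for 142 of the 213 genes. The gap from the lowest iSSC array to the highest other array was larger than that difference for 74. Of the 110 genes that had further probe sets on the array, 65 had the iSSC mean highest in all of them. Over those 198 further probe sets the share with iSSC highest was 66.7%, and it was 31.3% over the further probe sets of all genes. Both iSSC arrays were above the other 4 in 96 of the 198, and 48 of them also had an excess of at least 1. The median excess of the 198 was 0.36.

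Undifferentiated spermatogonia depend on glial cell line-derived neurotrophic factor, which acts through the receptors Gfra1 and Ret and induces the transcription factors Bcl6b, Etv5 and Lhx1. Cells in culture also answer inflammatory signals, in which NF-kB and C/EBP transcription factors switch on acute phase proteins and chemokines. These are general responses that fibroblasts, macrophages and epithelial cells can all make.

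The labelled cell kinds were checked against their markers. The median level over 22 measured genes of undifferentiated spermatogonia was 9.79 and 10.17 for SSC, 10.48 and 10.61 for iSSC, and 8.78 and 8.81 for mSSC. Their summed linear signal was instead highest in SSC, with 39500 and 50900 for SSC, 36200 and 38000 for iSSC, and 26000 and 25000 for mSSC. The median over 20 pluripotency genes stood at 11.62 and 11.75 for mSSC, against 7.30 and 7.77 for SSC and 7.53 and 7.83 for iSSC. Macrophage and fibroblast markers were present too. The median over 13 macrophage markers stood at 11.77 and 10.90 for SSC, 9.19 and 8.68 for iSSC, and 5.24 and 5.18 for mSSC, and their summed linear signal was 62200 and 40300, 19900 and 11600, and 750 and 1400. The median over 13 fibroblast markers stood at 12.97 and 12.01 for SSC, 9.84 and 10.31 for iSSC, and 8.02 and 9.78 for mSSC, with summed signals of 107000 and 67700, 20200 and 26500, and 10400 and 21200. None of these macrophage or fibroblast markers had its highest mean in iSSC. In such samples fewer cells of a type and less RNA per cell cannot be told apart.

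**Figure D1:**
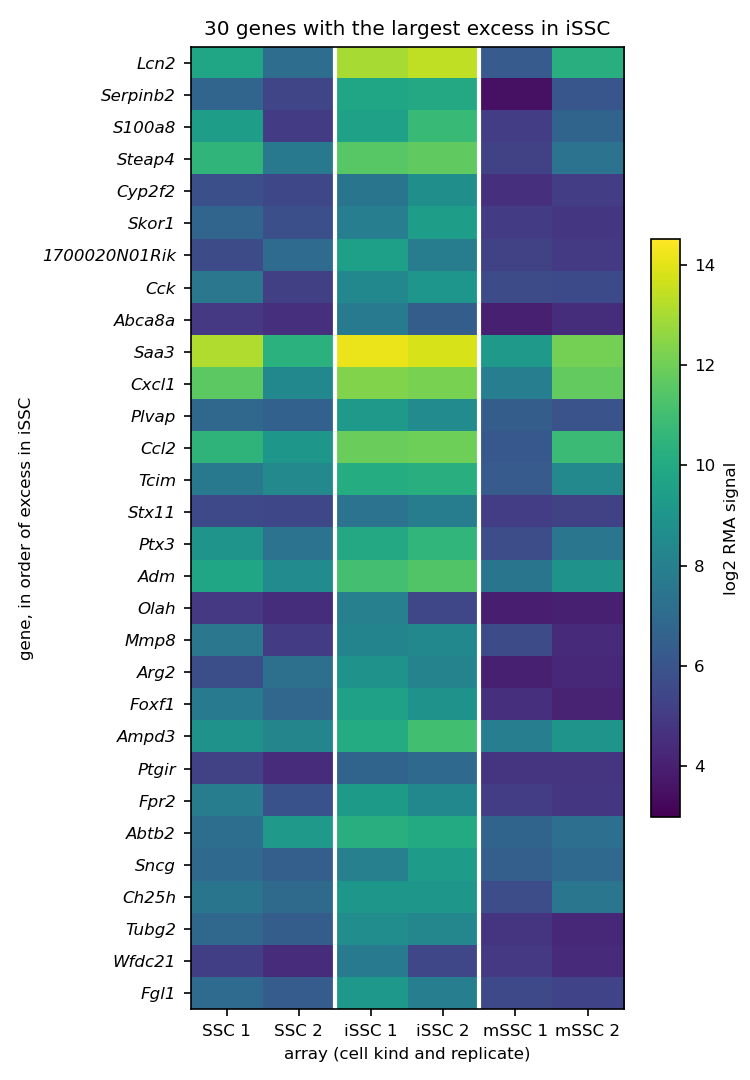
Log2 RMA signal (colour) of the 30 genes with the largest excess in iSSC (rows) in each of the 6 arrays (columns, 2 per kind of culture). Lcn2 is at the top with 12.99 and 13.41 in iSSC, and several genes of inflammation are brighter in SSC replicate 1 than in SSC replicate 2 and in mSSC replicate 2 than in mSSC replicate 1.

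Genes of acute phase and inflammatory responses held the largest excesses. Lcn2, a secreted protein that binds bacterial siderophores and is induced in inflammation, was at 12.99 and 13.41 in iSSC, 9.81 and 7.13 in SSC, and 6.29 and 10.24 in mSSC. That is an excess of 4.73, or 26.5-fold, and no other array came within 2.75 of the lower iSSC array. Serpinb2, an inhibitor of plasminogen activators, was at 9.77 and 9.93 in iSSC, 6.76 and 5.41 in SSC, and 3.51 and 6.07 in mSSC. Its excess of 3.77 was the next in size, and its 2 iSSC arrays were 3.01 or more above all others. S100a8, a calcium-binding protein of neutrophils and activated macrophages, was at 9.57 and 10.79 in iSSC, 9.42 and 4.99 in SSC, and 5.09 and 6.69 in mSSC. Here SSC replicate 1 reached to within 0.15 of the lower iSSC array, so the excess of 2.98 rests on the low SSC replicate 2.

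Other acute phase genes were bright in iSSC. Saa3, an acute phase apolipoprotein, had the highest iSSC mean of all 213 genes, with 14.17 and 13.80 in iSSC, 13.11 and 10.36 in SSC, and 9.24 and 12.08 in mSSC. Steap4, a metalloreductase induced by inflammatory cytokines, was at 11.50 and 11.71 in iSSC, 10.53 and 7.66 in SSC, and 5.22 and 7.40 in mSSC. Ptx3, a pentraxin that binds microbes, was at 9.95 and 10.56 in iSSC, 8.95 and 7.37 in SSC, and 5.71 and 7.52 in mSSC. In all 3 genes the SSC arrays differed from each other by more than 1.5, and mSSC replicate 2 was the higher of its group. Slpi, Serpina3n and Wfdc21, secreted proteins of the same kind of response, had excesses of 1.62, 1.28 and 1.84.

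Chemokines and cytokines were among the 213 as well. Cxcl1, which attracts neutrophils, was at 12.31 and 12.18 in iSSC, 11.61 and 8.39 in SSC, and 7.93 and 11.74 in mSSC. Ccl2, which attracts monocytes, was at 11.89 and 11.95 in iSSC, 10.46 and 9.09 in SSC, and 6.17 and 10.82 in mSSC. Its genomic neighbour Ccl7 followed with 10.81 and 11.55, 9.76 and 8.92, and 5.55 and 9.80. For these chemokines the 2 mSSC arrays were 3.81 or more apart, while the iSSC arrays differed by 0.74 or less. Lif, the cytokine that sustains mouse embryonic stem cells, was at 7.96 and 8.34 in iSSC, 6.39 and 6.44 in SSC, and 6.28 and 6.79 in mSSC. It differed less between replicates than these chemokines in SSC and mSSC. In iSSC it differed less than Ccl7 but more than Cxcl1 and Ccl2. Il33, an alarmin of the interleukin 1 family, was at 9.67 and 8.36 in iSSC, 7.57 and 8.27 in SSC, and 4.98 and 7.31 in mSSC. SSC replicate 2 was within 0.09 of the lower iSSC array, so its excess of 1.09 rests on iSSC replicate 1.

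Regulators of the response belonged to the same group. Tnfaip3, which encodes the feedback inhibitor A20 of NF-kB, was at 9.16 and 8.43 in iSSC, 8.11 and 6.45 in SSC, and 5.77 and 8.09 in mSSC. Nfkbiz, an inducible co-regulator of NF-kB, was at 9.87 and 10.42, 9.56 and 8.53, and 7.12 and 9.22. A further probe set of Nfkbiz had an excess of 1.25, but another had one of -0.11, with iSSC not highest. Cebpd, a C/EBP factor of the acute phase, was at 11.25 and 11.56, 10.44 and 9.73, and 7.16 and 9.07. All 3 had the order iSSC, SSC, mSSC in their means. Enzymes and receptors of lipid mediators were Ptges, which makes prostaglandin E2 and had an excess of 1.49, the prostacyclin receptor gene Ptgir (1.96) and Ch25h, which makes 25-hydroxycholesterol (1.87). The adhesion molecule gene Vcam1 had an excess of 1.18, and Tnfsf9, a ligand of the tumour necrosis factor family, one of 1.23.

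The 22 genes of this group shared a pattern between replicates that the rule did not ask for. In 17 of the 22 (77.3%), SSC replicate 1 was above SSC replicate 2 and mSSC replicate 2 above mSSC replicate 1, against 56 of all 213 genes (26.3%) and 22.3% of all 18194. The median of SSC replicate 1 minus replicate 2 was 1.18 in the group, and that of mSSC replicate 2 minus replicate 1 was 1.90. SSC replicate 1 also had the larger summed macrophage and fibroblast signal of its pair, and mSSC replicate 2 had the larger of its pair. The macrophage median went the other way in mSSC, with 5.24 in replicate 1 and 5.18 in replicate 2, and the macrophage sums there were low (750 and 1400). The part of these cells in the inflammatory genes was not tested. The macrophage and fibroblast medians were lower in iSSC than in both SSC arrays. The median of the 22 genes was higher in iSSC (9.91 and 10.31 in iSSC, 9.18 and 7.51 in SSC), an order that the rule set. Grouping of genes by role was done by hand with the values known.

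**Figure D2:**
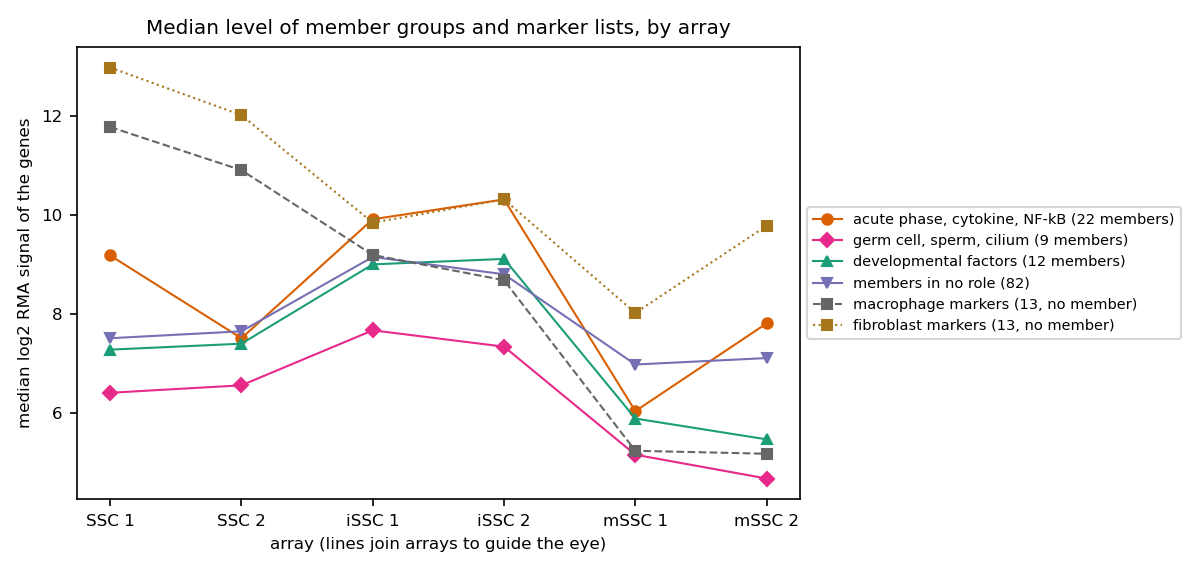
Median log2 RMA signal over the genes of a group (vertical axis) in each of the 6 arrays (horizontal axis), for 4 groups of the genes highest in iSSC and for 2 marker lists that hold none of them. The 22 inflammatory genes lie at 9.91 and 10.31 in iSSC with unequal replicates in SSC and mSSC, whereas macrophage and fibroblast markers are highest in SSC.

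The promoters of these genes were searched because these genes shared a pattern across the arrays. The inflammatory group was put together by hand from known roles in responses that use NF-kB and C/EBP factors. Its shares of NF-kB and C/EBP letters can therefore follow from the grouping, and this was not tested. RefSeq start sites of the mouse build GRCm38.p6 were found for 161 of the 213 genes, giving 208 promoters, and the 250 bases before each start were searched on both strands. The letters TTGCNNAA, a core of C/EBP sites, were in 9 of 18 promoters of the inflammatory group (50%), in 25 of the 208 (12%) and in 9.56% of all 32851 promoters. They occurred in 8 of the 15 inflammatory genes with a promoter in the table. The windows below show the match in capitals with up to 25 bases on each side, read 5′ to 3′ on the strand of the gene. They are shown because 4 of the 8 belong to the acute phase genes Lcn2, Saa3, Ptx3 and Slpi.
Lcn2, chr2:32387923-32387980, minus strand: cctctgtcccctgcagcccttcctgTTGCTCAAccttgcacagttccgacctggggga
Saa3, chr7:46715743-46715800, minus strand: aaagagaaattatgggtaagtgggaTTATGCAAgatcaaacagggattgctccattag
Ptx3, chr3:66219805-66219862, plus strand: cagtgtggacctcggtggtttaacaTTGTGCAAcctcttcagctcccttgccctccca
Slpi, chr2:164356716-164356757, minus strand: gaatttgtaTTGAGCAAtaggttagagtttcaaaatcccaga
Serpinb2, chr1:107511196-107511253, plus strand: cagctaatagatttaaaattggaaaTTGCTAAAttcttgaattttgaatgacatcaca
Steap4, chr5:7960360-7960417, plus strand: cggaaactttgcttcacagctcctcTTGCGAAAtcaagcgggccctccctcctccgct
Il33, chr19:29945680-29945737, plus strand: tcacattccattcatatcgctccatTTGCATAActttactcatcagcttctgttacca
Ch25h, chr19:34475228-34475285, minus strand: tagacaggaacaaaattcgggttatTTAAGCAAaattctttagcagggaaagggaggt
In Saa3, Ptx3, Slpi and Ch25h the match is in the reverse orientation.

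The NF-kB consensus was in 4 of the 18 inflammatory promoters (22.2%), those of Cxcl1, Lif, Steap4 and Tnfaip3, against 10.1% of the 208 and 7.25% of all promoters. Its match in Cxcl1 lies 71 bases before the start, and that in Tnfaip3 12 bases before it, and these are shown as examples from a chemokine and a feedback inhibitor.
Cxcl1, chr5:90891149-90891208, plus strand: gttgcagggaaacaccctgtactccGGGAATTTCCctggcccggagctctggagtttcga
Tnfaip3, chr10:19015411-19015447, minus strand: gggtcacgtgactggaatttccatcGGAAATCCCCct
The AP-1 letters TGANTCA were in 22.2% of the inflammatory promoters, 10.6% of the 208 and 6.75% of all. The antioxidant letters TGACNNNGC were in 11.1%, 11.1% and 10.2%. The serum response element was searched by its consensus, and matches were in 0 of the 18, in 1.44% of the 208 (promoters of Egr2) and in 1.38% of all. These shares describe letters in a short window, matches of different motifs can overlap, and 18 promoters are few.

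**Figure D3:**
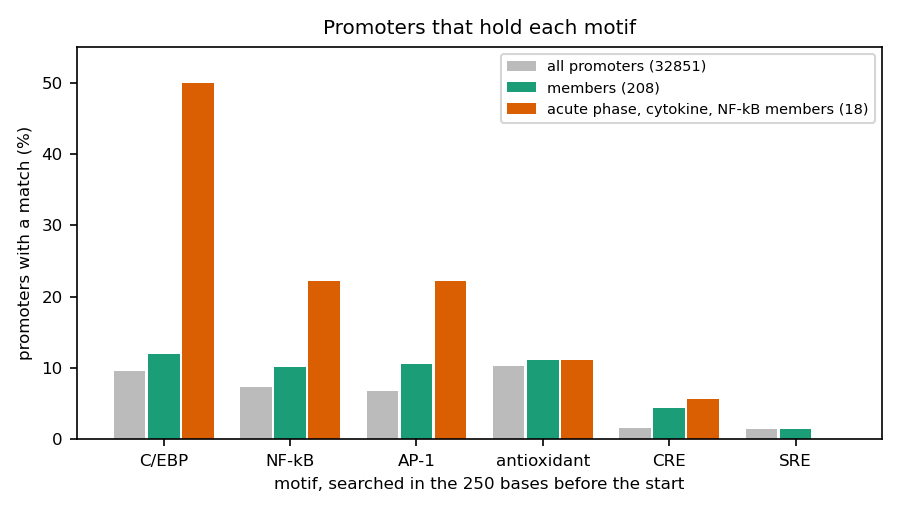
Percentage of promoters with at least 1 match (vertical axis, from 0) for each of 6 motifs searched in the 250 bases before the start, in all promoters (grey), in promoters of the genes highest in iSSC (green) and in those of their inflammatory group (orange). C/EBP letters are in 50% of the inflammatory promoters against 9.56% of all. The inflammatory group was put together by hand from known roles of its genes.

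The cyclic AMP response element TGACGTCA was in 9 of the 208 promoters (4.33%) against 1.55% of all, and only 1 of those 9, that of Ch25h, belongs to an inflammatory gene. The others are Aasdh, Aptx, B4galt3, Cds1, Kif5c, Mcam, Plk2 and Zwint. In 6 of the 9 the match starts within 50 bases of the start site. Windows are shown from the centromere gene Zwint and the DNA repair gene Aptx, whose matches start 23 and 17 bases before the start, and from the kinase gene Plk2, whose match starts 62 bases before it.
Plk2, chr13:110394957-110395014, plus strand: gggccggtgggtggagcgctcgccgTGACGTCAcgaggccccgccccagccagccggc
Zwint, chr10:72654798-72654845, plus strand: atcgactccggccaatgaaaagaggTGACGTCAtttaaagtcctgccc
Aptx, chr4:40703195-40703236, minus strand: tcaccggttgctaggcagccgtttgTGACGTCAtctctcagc

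Other genes of the list of secreted inflammatory factors were less uniform. Of its 32 measured genes, 5 are among the 213, and 17, these 5 included, had their highest mean in iSSC. The share of all genes with their highest mean in iSSC was not computed. Such counts, here and for the lists below, are thus given without a baseline. In iSSC against SSC 2 genes of the list rose at a Benjamini-Hochberg adjusted p under 0.05 in limma (Lif and Cxcl10), with none lower. Over all genes 0.225% rose and 1.87% fell in that comparison, 2.09% in all, and the rule used it for the genes chosen. The interferon-induced chemokine gene Cxcl10 rose by 1.97 ± 0.33 (SE, limma adjusted p = 0.046) but was also high in mSSC, with 6.95 and 6.94 against 8.01 and 7.05 in iSSC. Cxcl3 was at 6.56 and 6.60 in iSSC, 3.43 and 3.09 in SSC, and 3.67 and 7.56 in mSSC, and did not pass (adjusted p = 0.21). The stromal chemokine gene Cxcl12 was lower in iSSC than in SSC at -1.65 ± 0.51 (adjusted p = 0.19) and fell by 3.63 ± 0.51 in mSSC against SSC (adjusted p = 0.0070). The list's 2 calls in iSSC against SSC became 0 with a term for the replicate number, with either other choice of probe set, or without any 1 of the SSC or iSSC arrays, and 1 after quantile normalization.

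Genes of blood cells made up a second group of 12. Among them were receptors of phagocytes. Fpr2, a receptor for formylated peptides, was at 9.27 and 8.37 in iSSC, 7.83 and 5.91 in SSC, and 5.10 and 4.83 in mSSC. Clec4e, a receptor for mycobacterial glycolipid, was at 7.33 and 7.95, 6.99 and 4.92, and 4.01 and 4.58. The C-type lectin genes Mgl2 and Clec10a, adjacent on chromosome 11 and close in sequence, so that cross-hybridisation is possible, had excesses of 1.60 and 1.42. Mcpt8, a protease of basophils, was at 10.83 and 11.08 in iSSC, 9.19 and 9.14 in SSC, and 6.70 and 9.42 in mSSC. The metalloproteinase genes Mmp8 of neutrophils and Mmp12 of macrophages had excesses of 2.01 and 1.59, and in both SSC replicate 1 was above replicate 2 (7.55 and 4.98 for Mmp8, 7.31 and 5.35 for Mmp12).

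The rule itself placed these genes highest in iSSC, so their contrast with the general macrophage markers follows from the choice of genes. Of the 13 markers, 6 fell in iSSC against SSC, where 1.87% of all genes fell, and none rose. The complement gene C1qb was at 9.57 and 8.60 in iSSC and at 12.51 and 12.07 in SSC (-3.21 ± 0.35, limma adjusted p = 0.028). The leukocyte phosphatase gene Ptprc was at 5.82 and 5.52 against 9.61 and 8.24 (-3.26 ± 0.44, adjusted p = 0.030). The count of 6 became 0 without SSC replicate 1 or either iSSC array, or with probe sets averaged, and 2 with the most variable probe set.

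Surface and matrix genes formed a group of 11. Ctla2a and Ctla2b, which encode cysteine protease inhibitors, lie close together on chromosome 13 and are similar in sequence, so their probe sets may share signal. Ctla2a was at 12.65 and 12.83 in iSSC, 11.18 and 10.83 in SSC, and 4.71 and 7.19 in mSSC. Ctla2b was at 11.31 and 11.39, 10.82 and 9.44, and 3.96 and 5.01. Both were thus bright in SSC and iSSC. Plvap, an endothelial diaphragm protein that is also used to mark a subset of undifferentiated spermatogonia, was at 9.24 and 8.57 in iSSC, 6.85 and 6.57 in SSC, and 6.40 and 5.95 in mSSC. The median of 7 endothelial markers, which do not include Plvap, stood at 5.04 and 4.74 for iSSC, 5.11 and 4.42 for SSC, and 5.93 and 6.26 for mSSC. Mmp9, Procr, Mcam and Tm4sf1 had excesses of 1.39, 1.01, 1.05 and 1.36.

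Genes of undifferentiated spermatogonia formed a further list. Of its 22 measured genes, 8 had the highest mean in iSSC, of which Plvap and Bcl6b are among the 213 and Ret, Lhx1 and Id4 met the rule but were set aside. Bcl6b, a transcriptional repressor induced by glial cell line-derived neurotrophic factor, was at 10.51 and 10.28 in iSSC, 8.65 and 9.62 in SSC, and 7.79 and 7.36 in mSSC. In iSSC against SSC 2 genes of the list rose, Plvap and Lhx1, and none fell. Both met the rule, which used this comparison, so these calls describe the choice of genes. In iSSC against mSSC 13 rose and 1 fell, where 9.60% and 7.53% of all genes did. The rule used this comparison too, so any calls there of the genes that met it follow from the choice. The 2 calls against SSC became 0 with either other choice of probe set or without any 1 of the SSC or iSSC arrays, and 1 with a term for the replicate number or with a variance trend and robust moderation.

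Germ cell, sperm and cilium genes outside that list numbered 9, of which 4 were called lower in mSSC than in SSC in limma and 0 higher. Of all 213 genes 17.8% were called lower, and of all genes measured 10.6% were lower and 8.22% higher, 18.8% in either direction. Piwil4, a piRNA-binding protein of fetal and neonatal germ cells, was at 7.28 and 7.10 in iSSC, 5.33 and 5.49 in SSC, and 4.38 and 3.50 in mSSC. Tdrd1, a tudor protein of the piRNA pathway, was at 9.34 and 8.71, 7.39 and 8.58, and 5.16 and 4.36. Mageb3, an X-linked gene of the melanoma antigen family, was at 9.38 and 8.77, 6.41 and 8.17, and 3.15 and 3.67. SSC replicate 2 was above replicate 1 in all 3, by only 0.16 in Piwil4, but in 4 of the 9 genes replicate 1 was the higher. These 3 and the cilium gene Cfap300 were the 4 called. Among the other 5, the means of Tcp11x2 and Dkkl1 were 0.14 and 0.15 higher in mSSC and did not pass (limma adjusted p = 0.87 and 0.84).

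Transcription factors of embryonic tissues formed a group of 12. Foxf1 and Foxc2, forkhead factors of mesoderm with 1 protein-coding gene between them on chromosome 8, had similar levels. Foxf1 was at 9.59 and 8.88 in iSSC, 7.76 and 6.78 in SSC, and 4.61 and 4.16 in mSSC. Foxc2 was at 10.26 and 9.34, 8.35 and 7.70, and 5.78 and 4.96. Both stepped down from iSSC to SSC to mSSC with no overlap of groups. Zic1, a zinc finger factor of neural tissue, was at 10.76 and 11.07 in iSSC, 8.61 and 10.60 in SSC, and 3.50 and 4.56 in mSSC, so its excess of 1.31 rests on SSC replicate 1. Skor1, a corepressor of neurons, had an excess of 2.37 with iSSC arrays of 7.92 and 9.40, and of 1.06 with the probe sets of the gene averaged. Foxa2, a factor of endoderm, was at 7.65 and 8.06 in iSSC, 6.23 and 6.69 in SSC, and 6.01 and 5.82 in mSSC. Msx2, Hand2 and Dlx3 had excesses of 1.48, 1.14 and 1.06. Tcfl5, a helix-loop-helix factor of spermatogenesis, was bright everywhere, with 12.59 and 12.60 in iSSC and 10.92 to 11.77 in the other arrays.

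Afp, the fetal serum protein of yolk sac and liver, had the largest difference between iSSC and mSSC of the 213 genes, 8.50. It was at 12.61 and 11.77 in iSSC, 10.40 and 10.99 in SSC, and 3.74 and 3.63 in mSSC, a level below the lower quartile of these arrays (4.23 to 4.38 over the 6 arrays). It was therefore a bright transcript of SSC too. One further probe set of its 4 did not have iSSC highest.

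Immediate early genes and feedback regulators numbered 10. Egr2, a zinc finger factor induced by growth factors, was at 10.67 and 10.11 in iSSC, 8.81 and 8.97 in SSC, and 5.79 and 7.53 in mSSC. Fosl1, a subunit of AP-1, was at 9.56 and 9.83, 8.73 and 7.90, and 5.93 and 7.35. Ier3, a survival gene induced by stress, was at 12.10 and 11.94, 10.57 and 10.45, and 9.34 and 10.33. All 3 kept their groups apart between iSSC and the rest by 0.82 or more. Rgs2, which damps signalling of G proteins, was at 10.35 and 10.30 in iSSC, 8.83 and 8.95 in SSC, and 6.00 and 6.78 in mSSC. In the list of immediate early genes, 5 of 32 are among the 213, and 23, these 5 included, had their highest mean in iSSC. The share of all genes was not computed for this count. In limma none passed in iSSC against SSC in either direction. In iSSC against mSSC 9 rose and 1 fell (all genes, 9.60% and 7.53%). The rule used this comparison, so any calls there of the 5 chosen genes follow from the choice.

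Peptide and neuronal genes numbered 12. Adm, which encodes the vasodilator adrenomedullin, was at 11.08 and 11.37 in iSSC, 9.80 and 8.57 in SSC, and 7.46 and 8.88 in mSSC. Its neighbour on chromosome 7 with no protein-coding gene between, Ampd3, an AMP deaminase, was at 10.07 and 11.01, 8.92 and 8.24, and 7.92 and 8.96. Cck, which encodes the gut and brain peptide cholecystokinin, was at 8.36 and 9.03 in iSSC and at 7.58 and 5.20 in SSC and 5.62 and 5.57 in mSSC. The peptide genes Gal and Nmb had excesses of 1.35 and 1.13. Crmp1, a gene of axon growth, was the gene of the 213 with mSSC farthest above SSC, with 9.61 and 9.84 in iSSC, 7.80 and 7.31 in SSC, and 9.08 and 7.99 in mSSC (0.98, limma adjusted p = 0.14).

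Genes of metabolism made up 3 groups. In carbohydrate metabolism, Pfkfb3, which makes an activator of glycolysis, was at 8.02 and 8.59 in iSSC, 6.90 and 6.12 in SSC, and 6.54 and 6.45 in mSSC. The glycogen enzymes Gbe1, which branches it, and Pygl, which breaks it down, had excesses of 1.61 and 1.26, and Pdk4, which restrains pyruvate oxidation, one of 1.38. Arg2, the mitochondrial arginase, was at 8.88 and 8.13 in iSSC, 5.75 and 7.23 in SSC, and 4.02 and 4.26 in mSSC. Among lipid genes, Fabp4, a fatty acid carrier of adipocytes and macrophages, was at 11.59 and 12.32, 11.05 and 9.54, and 6.23 and 7.25. Hilpda, a hypoxia-induced inhibitor of lipolysis, was at 10.11 and 9.83, 8.49 and 8.37, and 8.82 and 8.70, with replicates 0.28 or less apart. Cyp2f2, a cytochrome P450 best known from lung, was at 7.48 and 8.73 in iSSC and between 4.53 and 5.80 elsewhere.

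Gclc, the catalytic subunit of the enzyme that starts glutathione synthesis, was the only one of the 213 in the list of Nrf2 targets. It was at 11.64 and 12.06 in iSSC, 10.01 and 11.17 in SSC, and 9.33 and 9.60 in mSSC. Nrf2 is the transcription factor that answers oxidative stress, and 45 genes of the list were measured. Against SSC 4 of them rose in limma, Nqo1, Slc7a11, Glrx and Cbr3, and none fell. Glrx met the rule and was set aside, and the other 3 did not meet it. Of these 4, Nqo1 was about as high in mSSC (8.17 and 8.65) as in iSSC (8.47 and 9.02). The 4 calls became 0 with a term for the replicate number, with either other choice of probe set, or without SSC replicate 1 or either iSSC array, and 2 after quantile normalization or without SSC replicate 2. From the hypoxia list Adm and Pfkfb3 are among the 213. In that list 12 of 21, Adm and Pfkfb3 included, had their highest mean in iSSC, with 0 called in iSSC against SSC. For this list and the immediate early list the rest of the genes thus did not pass against SSC.

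Small heat shock proteins and related genes were Cryab, Hspb6, Hspb7, Hspa1b and Cirbp. Cryab, a chaperone of lens and muscle, was at 11.87 and 11.68 in iSSC, 9.77 and 10.15 in SSC, and 5.59 and 7.51 in mSSC. Cirbp, an RNA-binding protein induced by cold, was at 11.65 and 11.42, 8.59 and 11.01, and 9.29 and 9.40, so SSC replicate 2 was near iSSC. Hspa1b, an inducible chaperone with a near-identical copy in Hspa1a, was at 10.87 and 11.55, 9.69 and 10.71, and 8.59 and 7.43. Its further probe sets had the iSSC mean highest, but SSC replicate 2 was above iSSC replicate 1 in them (9.58 against 9.40, and 10.53 against 10.24). From the list of p53 targets, the death receptor gene Fas (8.41 and 8.84 in iSSC, 7.64 and 7.42 in SSC, 6.07 and 6.5 in mSSC) and Plk2 (11.09 and 11.45, 10.34 and 10.00, 9.98 and 10.23) belonged to the 213. No gene of the 31 in that list passed in iSSC against SSC in limma.

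The comparison of mSSC with SSC shows how the 213 genes stood in the other kinds of culture. The rule set no direction for it but used the values of both groups, so the choice of genes can shape it. The shares over all genes are therefore given for scale and are not a like baseline. How much of the difference comes from the choice was not tested. The SSC mean was above the mSSC mean in 186 of them (87.3%), against 44.1% of all genes. The median of mSSC minus SSC was -0.60 for the 213 and 0.08 for all genes. In limma 38 of the 213 (17.8%) were lower in mSSC and 0 were higher, where 10.6% and 8.22% of all genes were, 18.8% in either direction. A single gene of the 213 was higher at an unadjusted p under 0.05. Both mSSC arrays lay below both SSC arrays for 100 of the 213, against 26.3% of all genes, and above them for 8, against 32.3%.

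The 6 largest of these decreases were found in Afp, Ctla2b, Zic1, Ctla2a, the uncharacterised gene 4930550L24Rik and Serpina3n. Afp changed by -7.01 ± 0.35 (SE, limma adjusted p = 0.00052). Ctla2b fell 50-fold (-5.64 ± 0.52, adjusted p = 0.0020) and Ctla2a 33.2-fold (-5.05 ± 0.73, adjusted p = 0.0075). Zic1 changed by -5.57 ± 0.67 (adjusted p = 0.0042) to 3.50 and 4.56, near the lower quartile of the arrays. The unnamed gene 4930550L24Rik changed by -4.43 ± 0.41 (adjusted p = 0.0020), and the acute phase inhibitor Serpina3n by -3.99 ± 0.62 (adjusted p = 0.0094). Cryab, Fabp4, Foxf1, Foxc2 and Rgs2 were also among the 38. Of the 22 inflammatory genes only Serpina3n was called, and Lcn2 was at -0.21 ± 1.35 (adjusted p = 0.93), with an SE that reflects its unequal replicates. Without mSSC replicate 2 or without SSC replicate 2, 1 gene of the 213 was called higher in mSSC.

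**Figure D4:**
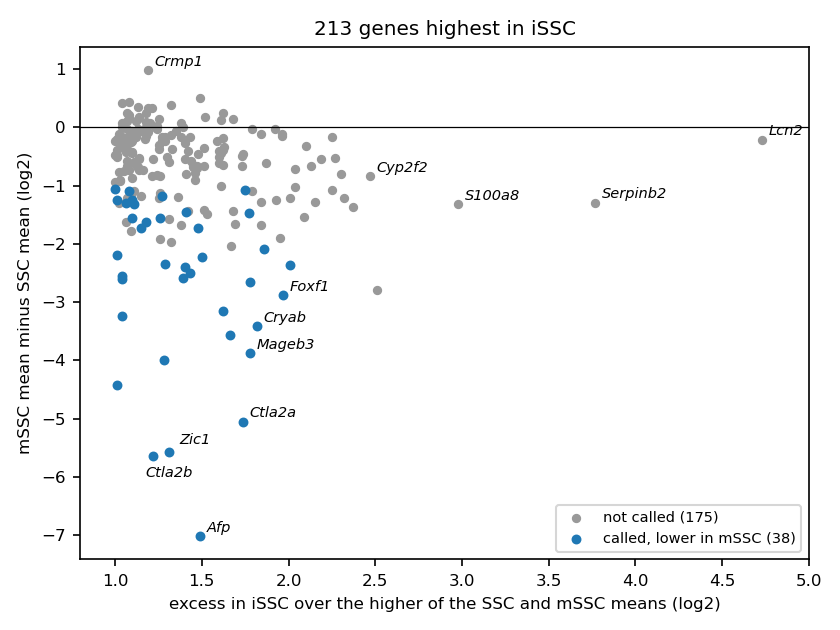
Difference of the mSSC and SSC means (vertical axis, log2) against the excess in iSSC (horizontal axis, log2) for the 213 genes, with the 38 called in limma in blue and the 175 others in grey. The genes with the largest excess, Lcn2 and Serpinb2, are not called, and the called genes all lie below 0, down to -7.01 for Afp.

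Several of the genes are neighbours in the genome. All 213 matched the RefSeq gene table and 206 are protein coding. In 7 pairs no protein-coding gene lay between the members: Mgl2 and Clec10a, Ccl2 and Ccl7, Fas and Ch25h, Fabp9 and Fabp4, Fbxl5 and Bst1, Adm and Ampd3, and Sbk1 and Lat. Some of these are families of related sequence, and others, such as Fas and Ch25h or Adm and Ampd3, are unrelated in function. A further 12 pairs had 1 to 5 genes between them, among them Skor1 and Smad6 and the protease genes Mmp12 and Mmp8. How many such pairs an equal number of other genes would hold was not computed, so these counts do not show clustering.

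The 82 genes without an assigned role had excesses of 1.00 to 2.32 with a median of 1.18. Their median level was 9.15 and 8.80 in iSSC, 7.51 and 7.65 in SSC, and 6.98 and 7.11 in mSSC. The largest excess among them was that of 1700020N01Rik, at 9.49 and 7.81 in iSSC, 5.63 and 7.03 in SSC, and 5.26 and 4.95 in mSSC, where the iSSC replicates differed by more than 1.5. Tcim, Abtb2 and Tubg2 followed with 2.13, 1.93 and 1.86. Across all 213 genes the median SD between replicates was smallest for iSSC at 0.269, with 0.415 for SSC and 0.355 for mSSC, and each was above that of all genes (0.139, 0.247 and 0.206). In Olah and Wfdc21 the 2 iSSC arrays differed by more than 2 (8.01 and 5.46, and 7.80 and 5.46), so the excess of these genes rests on iSSC replicate 1.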

How the data were processed

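RNA of 6 samples, 2 per group, was hybridised to Affymetrix arrays. The deposited values are log2 signals that the authors made with RMA, per the submitters' processing notes, with the version not given in sources used here. RMA subtracts background, normalizes quantiles and summarises probe sets, so dim genes are compressed. Array medians lay between 5.83 and 5.93, and nothing was rescaled. Probe sets with exactly 1 symbol (34958 of 45101) gave 18194 genes. All 6 arrays entered 1 linear model with a mean per group (limma 3.58.1, R 4.3.3). Its moderated tests were 2-sided, Benjamini-Hochberg adjustment covered all 18194 genes, a gene was called at an adjusted p under 0.05, and dim genes were not filtered. Simulated data had normal noise and 200 of 18194 genes changed in mSSC against SSC. In them 39.1% of 4-fold and 0.3% of 2-fold changes were found, with 4.37% of calls false. In the real data 3425 genes were called in this comparison, so these rates need not hold for them. Genes are named by size of excess or level, membership in a gene list, calls between mSSC and SSC, nearness to the threshold or to each other, and, in the roles grouped by hand, after their values were seen. The genes and lists were chosen with earlier results of these data known. Lists not named in the report hold at most 2 called genes in either direction in iSSC against SSC, except Sertoli cell genes (3 lower of 12). The number of arrays limits precision. Other settings were the choice of probe set, scaling, dim genes, a replicate term, variance models, the thresholds of the rule, and leaving out each array. The signal of the 3' minus the 5' end of beta-actin was 0.89 in SSC replicate 1 and 0.12 to 0.61 elsewhere.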

Additional observations from a re-analysis of the deposited data

How the results depend on the processing

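The rule chose 150 to 299 genes under other choices of probe set or scaling, 385 with an excess of at least 0.8 and 66 with at least 1.5. Leaving out 1 array gave 211 to 359 genes, of which 148 to 197 were shared with the 213, and the highest count was without iSSC replicate 2. Median centring and quantile normalization kept 213 and 205 of them, and averaged probe sets 136. The count of genes called lower in mSSC than in SSC, 38, was 28 to 39 under all settings, with 37 under the replicate block, and the count called higher was 0 except where an array was left out (0 to 1). Of 529 values of these 38 genes under other settings, 419 still passed, 110 did not and 0 changed sign. Over all genes the calls in mSSC against SSC (3425) went to 1966 on 4 arrays and 1966 to 3462 without 1 array. Those in iSSC against SSC (381) went to 29 with probe sets averaged, 113 with the most variable probe set, 148 under the replicate block and 0 to 503 without 1 array, with 0 when SSC replicate 1 or either iSSC array was left out. Calls in iSSC against mSSC (3117) went to 604 to 3724 without 1 array. A group reduced to 1 array borrows its spread from the other groups. Same-numbered replicates deviated together only weakly across genes (r = 0.12, 0.07 and 0.17), so the numbers were not taken as pairs. Arrays give no read depth.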
